A study of Mus musculus with 40 samples.

Results

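Gene expression in the hippocampus was compared with that in the prefrontal cortex, across all annotated genes, in mice that carried either of 2 forms of Dio2, whose enzyme makes T3, the active thyroid hormone, out of thyroxine. Of the 40 microarrays of the study, the 16 with either region in their titles were used: 8 of hippocampus and 8 of prefrontal cortex, with 4 arrays of each genotype in each region. The genotypes are written Ala92D2HY and Thr92D2HY in the labels and are called Ala and Thr here, for alanine or threonine in the enzyme. All mice were of the background strain C56BL/6 as the labels spell it, aged 8 to 10 weeks, untreated, and fed chow, and total RNA of each region was hybridised. No animal is named for an array in the labels, nor how the regions were dissected, and p-values rest on the spread among arrays alone, which could be technical. Of 19505 annotated genes on the arrays, 14429 passed a filter on dim signals and were tested.

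The hippocampus is a folded sheet of older cortex in which the granule cells of the dentate gyrus project to pyramidal cells of CA3, which project to those of CA1, and it is known for its part in memory and for carrying a high level of receptors for stress hormones. The prefrontal cortex is layered neocortex, in which upper layer neurons connect cortical areas and deep layer neurons project out of the cortex. Both regions hold excitatory pyramidal neurons, inhibitory interneurons and the same classes of glia, while their excitatory neurons arise under different transcription factors.

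Signals were log2 values that reached 19.4 for the brightest gene named here, and differences are given as hippocampus minus prefrontal cortex with the standard error (SE) of the limma fit. A gene was called when its adjusted p was under 0.05 and its difference was at least 1 log2 unit, which is a change by a factor of 2 on the deposited scale. The median of the negative control probes lay between 5.73 and 6.02 over the 16 arrays, and levels under 6.02 are called below background. For a gene below background in one region, the distance of the brighter mean from 6.02 is given as a lower bound, written "at least". Array medians were close, from 6.12 to 6.25, and no array was identical to another.

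Markers of dentate granule cells were higher in the hippocampus arrays and upper layer markers of the neocortex in the prefrontal arrays, and transcripts of neighbouring tissue were measured beside them. The mean of 16 dentate granule cell markers was 8.90 to 10.3 in the hippocampus arrays and 7.54 to 7.87 in the prefrontal arrays, and that of 16 upper layer neocortex markers was 8.22 to 8.77 in hippocampus and 9.20 to 9.54 in prefrontal cortex. Neither pair of ranges overlapped. The means of the deep layer neocortex list, 8.11 to 9.30 in hippocampus and 8.59 to 9.19 in prefrontal cortex, did overlap, as did those of the mossy cell and subiculum list, 8.46 to 8.79 and 8.55 to 8.94. In bulk samples such as these, fewer cells of a type and less RNA per cell cannot be told apart. The mean of 17 olfactory bulb markers was 6.32 to 6.69 in hippocampus and 8.45 to 10.7 in prefrontal cortex, and it was highest on prefrontal arrays 25, 27, 30 and 32. In the hippocampus, Th, Cdhr1, Scgn, Eomes, Dlx2, Sp8, Nmb and Tbx21 of that list were below background. Means of 15 striatum markers were 7.68 to 7.94 in hippocampus and 7.95 to 8.46 in prefrontal cortex, close but without overlap. Of these markers 2 were called higher and 4 lower in hippocampus. Means of 16 thalamus and habenula markers stood out at 10.0 and 8.83 on Thr hippocampus arrays 23 and 24, against 7.14 to 7.62 on the other 6 hippocampus arrays. Means of 15 choroid plexus markers, genes of the tissue that secretes cerebrospinal fluid, were 8.30, 8.02 and 6.81 on hippocampus arrays 17, 24 and 23 and 5.50 to 6.02 on the others. In the prefrontal cortex the choroid plexus genes Kl, Clic6, Otx2, Lbp and Sostdc1 were below background.

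**Figure D1:**
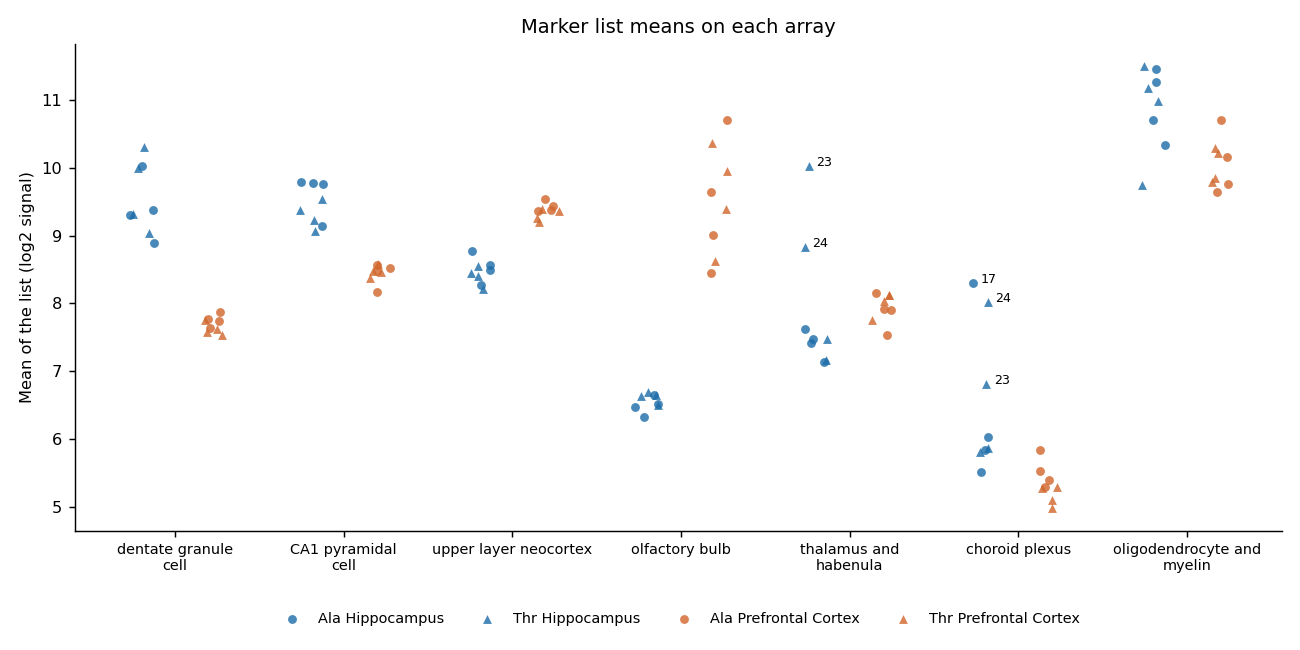
Mean log2 signal of 7 marker lists on each array, with Ala arrays as circles, Thr arrays as triangles, hippocampus in blue and prefrontal cortex in orange. The olfactory bulb means spread from 8.45 to 10.7 over the prefrontal arrays, and hippocampus arrays 17, 23 and 24 are marked where they stand apart.

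Promoter sequences are shown for 4 genes that separate the regions, Cabp7 and Prox1 on the hippocampal side and Cckbr and Sema3a on the prefrontal side. Each is the 250 bases before the RefSeq start of the gene in GRCm38.p6, written 5′ to 3′ on the strand of the gene. The windows are chr11:4747180-4747429 on the minus strand for Cabp7, chr1:190170828-190171077 on the minus strand for Prox1, chr7:105425481-105425730 on the plus strand for Cckbr and chr5:13396534-13396783 on the plus strand for Sema3a. Capitals mark a match to CAGATG or its reverse CATCTG, an E-box that NeuroD factors bind.
Cabp7: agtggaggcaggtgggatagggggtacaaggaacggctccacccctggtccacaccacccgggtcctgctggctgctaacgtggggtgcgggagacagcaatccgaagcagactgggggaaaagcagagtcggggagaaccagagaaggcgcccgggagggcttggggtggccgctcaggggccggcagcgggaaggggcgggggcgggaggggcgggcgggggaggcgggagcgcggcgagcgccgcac
Prox1: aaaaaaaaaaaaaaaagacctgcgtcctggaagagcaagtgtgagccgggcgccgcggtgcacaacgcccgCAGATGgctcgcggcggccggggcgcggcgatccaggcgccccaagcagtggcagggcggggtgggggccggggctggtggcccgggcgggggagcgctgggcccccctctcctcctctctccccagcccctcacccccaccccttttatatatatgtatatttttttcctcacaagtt
Cckbr: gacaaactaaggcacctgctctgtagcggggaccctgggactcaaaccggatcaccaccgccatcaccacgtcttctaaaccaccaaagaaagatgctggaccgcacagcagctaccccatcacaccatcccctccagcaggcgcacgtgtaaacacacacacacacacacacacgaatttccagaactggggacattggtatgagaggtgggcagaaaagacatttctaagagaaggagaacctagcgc
Sema3a: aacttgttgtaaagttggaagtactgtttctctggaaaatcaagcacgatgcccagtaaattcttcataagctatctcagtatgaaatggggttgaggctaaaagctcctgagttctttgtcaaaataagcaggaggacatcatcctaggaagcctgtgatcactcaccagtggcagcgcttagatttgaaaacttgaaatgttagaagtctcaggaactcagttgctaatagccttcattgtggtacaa
GC content was 72.4% in the Cabp7 window, 64.8% in that of Prox1, 53.6% in that of Cckbr and 40.8% in that of Sema3a. The E-box was in 1 place in the Prox1 window. Over all tested genes with a promoter in the table, 1254 of 11648 windows (10.8%) held it, against 46 of 343 (13.4%) of the genes called higher in hippocampus and 39 of 364 (10.7%) of those called lower. The MEF2 motif CTANNNNTAG, which is its own reverse, was in 2.88% of all windows, 2.62% of those of the higher genes and 3.30% of those of the lower genes. The median GC content was 58.8% over all genes, 61.6% over the higher genes and 59.6% over the lower genes.

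The regions differed at 936 of the 14429 genes (6.49%). Of these, 464 (3.22%) were higher and 472 (3.27%) lower in hippocampus, with median differences of 1.37 and -1.44 where the median over all tested genes was -0.01. Differences of at least 3 log2 units were found for 26 higher and 37 lower genes. All 8 arrays of one region lay above all 8 of the other for 969 genes (6.72%), 646 of them called. The dimmer region was below background for 105 of the higher and 124 of the lower genes, and both regions were for 27 and 29 of them.

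**Figure D2:**
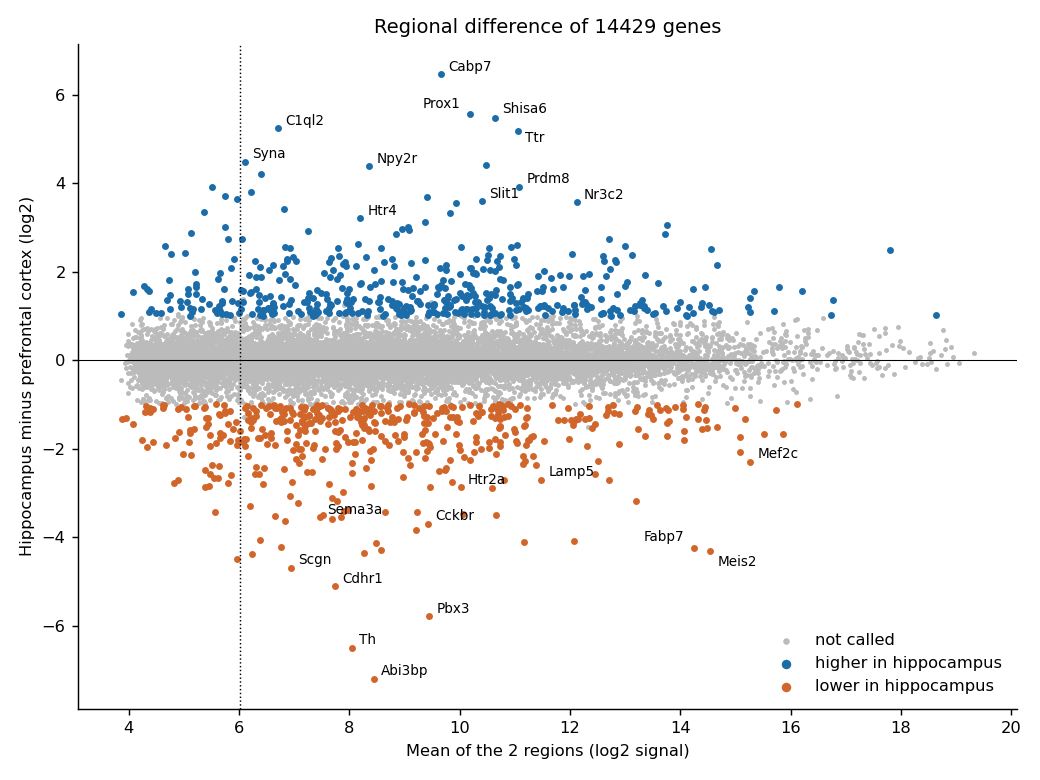
Difference between hippocampus and prefrontal cortex (log2) against the mean of both regions (log2 signal) for 14429 genes, with called genes in blue (464 higher in hippocampus) and orange (472 lower). The dotted line marks the highest negative control median, and Cabp7 and Abi3bp lie at the ends of the range.

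Genes highest in the hippocampus were led by Cabp7, a calcium-binding protein of the calmodulin family. Its signal ran from 12.45 through a median of 12.81 to 13.53 in hippocampus and from 5.33 through 6.50 to 7.09 in prefrontal cortex. The groups lay far apart, with a difference of 6.46 ± 0.20, a factor of 88.2 (limma, adjusted p = 1.50e-14). Prox1, the homeobox transcription factor that keeps the identity of dentate granule cells, ran from 11.87 through 12.86 to 14.28 in hippocampus and from 6.80 through 7.49 to 7.90 in prefrontal cortex. Its difference was 5.57 ± 0.26 (adjusted p = 6.43e-12). Shisa6, an auxiliary protein of AMPA receptors, ran from 12.30 through 13.33 to 14.15 against 6.32 through 8.09 to 8.70, a difference of 5.46 ± 0.29. C1ql2, a complement-like protein that granule cells secrete at their mossy fibre synapses, was below background on every prefrontal array and 7.86 to 11.12 in hippocampus, so it was higher by at least 3.31 log2 units. None of these 4 genes had hippocampus and prefrontal values that overlapped.

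The next genes by size included several regulators of transcription and growth. St18, a zinc finger transcription factor, was higher by 4.41 ± 0.22, with 11.82 through 12.77 to 13.40 in hippocampus and 7.63 through 8.34 to 8.64 in prefrontal cortex. Prdm8, a PR domain regulator of transcription, was higher by 3.92 ± 0.23, and Iqgap2, a scaffold protein, by 3.70 ± 0.26. Galnt17, of the GalNAc transferase family, was higher by 3.55 ± 0.21, and Tgfb2, a secreted growth factor, by 3.33 ± 0.29. Syna, a gene of retroviral envelope origin that acts in the placenta, was 7.13 to 9.75 in hippocampus and below background in prefrontal cortex, a difference of at least 2.33. Ttr, which encodes the hormone carrier transthyretin and marks choroid plexus, differed by 5.18 ± 1.07 (adjusted p = 0.00108) and behaved unlike the others. It ran from 10.44 to 18.15 in hippocampus, with 18.15, 17.85 and 16.28 on arrays 17, 24 and 23, and from 5.71 to 13.89 in prefrontal cortex, so the groups overlapped. Without those 3 hippocampus arrays its difference was 2.91 and was still called. Kl, the Klotho gene and another choroid plexus gene, was higher by at least 2.47, and its fitted difference of 4.21 moved to 3.72 without those arrays.

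Genes lowest in the hippocampus were of more than one kind. Abi3bp, a matrix protein, ran from 3.68 through 4.90 to 5.78 in hippocampus, below background throughout, and from 10.14 through 12.26 to 13.18 in prefrontal cortex. It was lower by at least 6.02 log2 units (fitted difference -7.20 ± 0.32, adjusted p = 3.00e-12), and the difference was -7.17 without the 4 prefrontal arrays highest in olfactory bulb markers. Cckbr, the brain receptor of cholecystokinin, ran from 6.02 through 8.02 to 9.02 against 10.08 through 11.52 to 12.23, a difference of -3.70 ± 0.41 (adjusted p = 8.09e-07). Chrdl1, a secreted BMP antagonist, ran from 5.92 through 6.05 to 6.34 against 8.89 through 9.64 to 10.00, with a difference of -3.54 ± 0.15. Sema3a, a repulsive guidance cue for axons, was 4.42 to 6.85 in hippocampus and 8.61 to 9.75 in prefrontal cortex and was lower by at least 3.22. These groups did not overlap, and without the 4 arrays the fitted differences of Cckbr and Sema3a were -3.71 and -3.38. The prefrontal arrays that remained still had olfactory bulb means of 8.45 to 9.39, above the highest hippocampus mean of 6.69. Leaving out the 4 arrays thus lowers the level of those markers without removing it.

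A second kind rose and fell with the olfactory bulb markers among the prefrontal arrays. Th, tyrosine hydroxylase of the dopaminergic cells of the bulb, was 4.36 to 5.52 in hippocampus and 8.98 to 13.18 in prefrontal cortex, lower by at least 5.28 (fitted difference -6.50 ± 0.48, and -5.54 without the 4 arrays). Pbx3, a homeobox gene, ran from 5.10 through 6.66 to 7.96 against 10.68 through 12.25 to 14.24, with a difference of -5.79 ± 0.49 that was -4.69 without them. Cdhr1, a cadherin-related gene of mitral cells, and Scgn, the calcium sensor secretagogin, were lower by at least 4.28 and 3.27, and Eomes, a T-box gene of the same cells as Cdhr1, by at least 2.41. Fabp7, a fatty acid binding protein of radial and ensheathing glia, differed by -4.25 ± 0.34, Calb2, which encodes calretinin, by -4.11 ± 0.34, and Lgr5, a receptor of R-spondins, by -4.29 ± 0.42. Syt6, Cdkn1a, Gng4 and Tshz1 differed by -4.35, -4.13, -4.08 and -3.84. Of these, Cdkn1a encodes the cell cycle inhibitor p21, Gng4 a G protein subunit and Tshz1 a zinc finger factor of olfactory bulb interneurons. For all 12 genes the slope on the olfactory bulb mean, fitted within groups, was positive at an adjusted p under 0.05, and Th, Pbx3, Cdhr1, Scgn and Eomes are themselves part of that mean.

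Of the 459 lower genes outside the olfactory bulb list, 126 (27.5%) rose with that mean over the prefrontal arrays, against 2.29% of all 14412 genes outside the list. Without the 4 arrays, 817 genes were called, 732 of them among the 936, and all 936 kept the sign of their difference. How much of each prefrontal level came from olfactory bulb tissue was not tested. On the hippocampal side, 82 of 453 higher genes outside the dentate list (18.1%) rose with the mean of the dentate markers over the hippocampus arrays, against 0.826% of all genes. For thalamus and choroid plexus the counts were 0 of 462 and 0 of 458, against 0.104% and 0.0278%. Without hippocampus arrays 17, 23 and 24, 1035 genes were called, 882 of them among the 936.

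**Figure D3:**
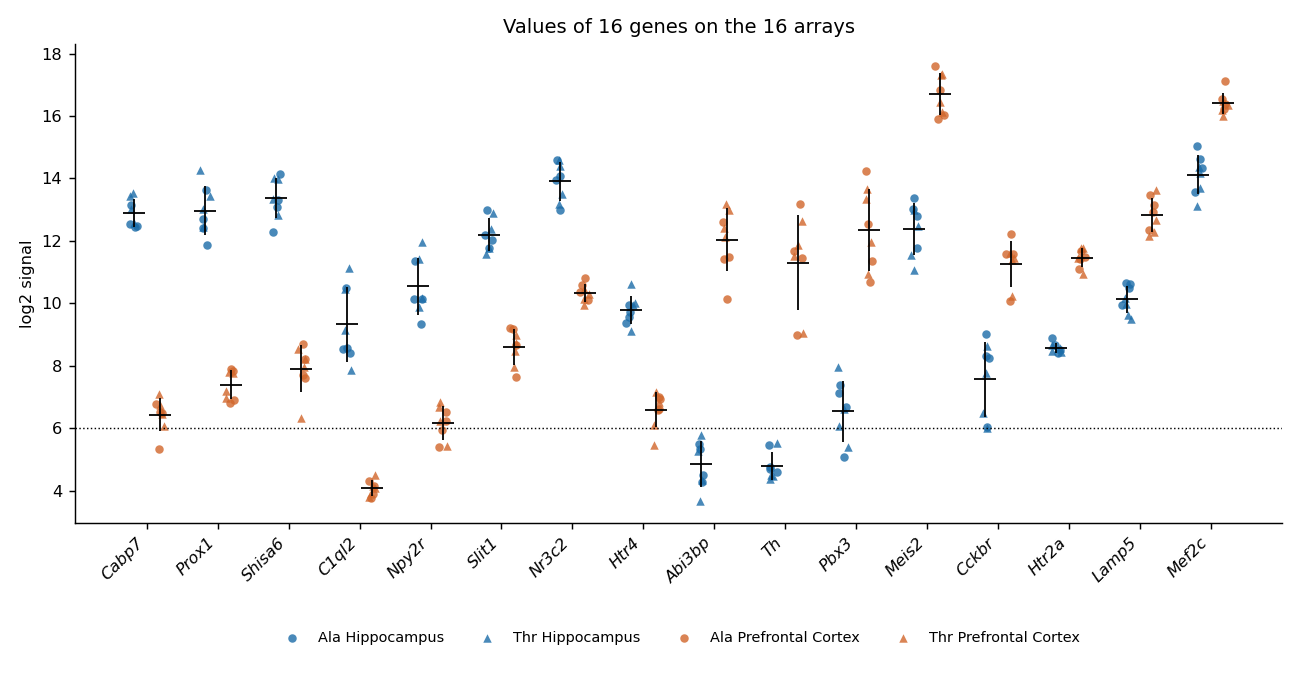
Log2 signal of 16 genes on each array, hippocampus in blue and prefrontal cortex in orange, circles for Ala and triangles for Thr, with black lines at the mean ± SD of the 8 arrays and a dotted line at the highest negative control median. The regions do not overlap for any of the 16 genes, and the prefrontal values of Th spread from 8.98 to 13.18.

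In each list of hippocampal cell type genes more were called higher than lower, counted beside the shares over all genes of 3.22% higher and 3.27% lower. Of 16 dentate granule cell genes, 11 were higher and 0 lower, with a median difference of 1.72. Beside Prox1 and C1ql2 these included Dsp, which encodes the junction protein desmoplakin (at least 0.55), Tdo2, tryptophan dioxygenase, with means below background in both regions, Lct, lactase (at least 1.01), and Sema5a, a semaphorin (2.30 ± 0.26). Of 11 CA1 genes, 6 were higher and 1 lower, with a median of 1.09. Spink8, a protease inhibitor gene, was 6.70 to 8.61 in hippocampus and below background in prefrontal cortex (at least 1.77), and Gpr161, a receptor of primary cilia, differed by 2.53 ± 0.14 with no overlap. Fibcd1, an acetyl-group receptor, was higher by at least 2.13, and Wfs1, the wolframin gene, by 1.09. The CA1 gene that was lower was Nr4a1, which neurons also induce on activity, and Dcn was higher by 1.36 ± 0.45. Both lost their calls without single arrays, Nr4a1 without 18, 21, 25 or 28 (-1.63 to -1.42) and Dcn without 17, 19, 21, 22, 24, 28, 29 or 31 (1.03 to 1.35). Nr4a1 also lost its call without the 4 arrays (-1.17), under which Dcn was at 2.10, and Dcn lost its call without arrays 17, 23 and 24 (1.46).

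Among 18 genes of CA2 and CA3, 7 were higher and 2 lower, with a median of 0.88. Grik4, a kainate receptor subunit of CA3 cells, ran from 8.75 through 9.70 to 10.82 against 6.95 through 7.53 to 8.10, a difference of 2.23 ± 0.24. Homer3, a postsynaptic scaffold, differed by 2.21 ± 0.21 and Iyd, the iodotyrosine deiodinase, by 1.98. The lower genes of the list were Cacng5 (-3.13 ± 0.31), which rose with the olfactory bulb markers, and the protease Prss23 (-2.55 ± 0.27). Of 12 genes of mossy cells and the subiculum, 4 were higher and 2 lower (median 0.05). The lower genes were Calb2 (-4.11), which rose with the olfactory bulb markers, and Tpbg (fitted difference -2.47). Tpbg was below background on every hippocampus array but 19 (6.97). Cyp7b1, an oxysterol hydroxylase, differed by 2.13 ± 0.20, and Nnat and Lypd1 each by 1.65 with values that overlapped.

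Of 16 upper layer genes of neocortex, 8 were lower and 1 higher in hippocampus, with a median of -0.97. Lamp5, a membrane protein of upper layer neurons and some interneurons, ran from 9.51 through 10.08 to 10.66 against 12.17 through 12.80 to 13.64, a difference of -2.71 ± 0.20 that was -2.84 without the 4 arrays. Mef2c, a transcription factor of cortical neurons, ran from 13.13 through 14.26 to 15.04 against 15.99 through 16.38 to 17.13 (-2.29 ± 0.20). The homeobox genes Cux2 and Cux1 differed by -2.0 and -1.73, and the higher gene was Lhx2 (1.59 ± 0.15), a homeobox gene active in both cortex and hippocampus. Deep layer genes went both ways, with 8 of 22 lower and 5 higher (median 0.38). Lower were Syt6, the T-box gene Tbr1 (-1.32 ± 0.25), the forkhead gene Foxp2 and the sulfatase Sulf1. Higher were the zinc finger genes Fezf2 (1.01) and Bcl11b (1.12), the nuclear receptor Nr4a2 (1.91 ± 0.44), the sulfotransferase Hs3st4 (2.03 ± 0.24) and Crym. Nr4a2 lost its call without hippocampus arrays 17, 23 and 24.

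**Figure D4:**
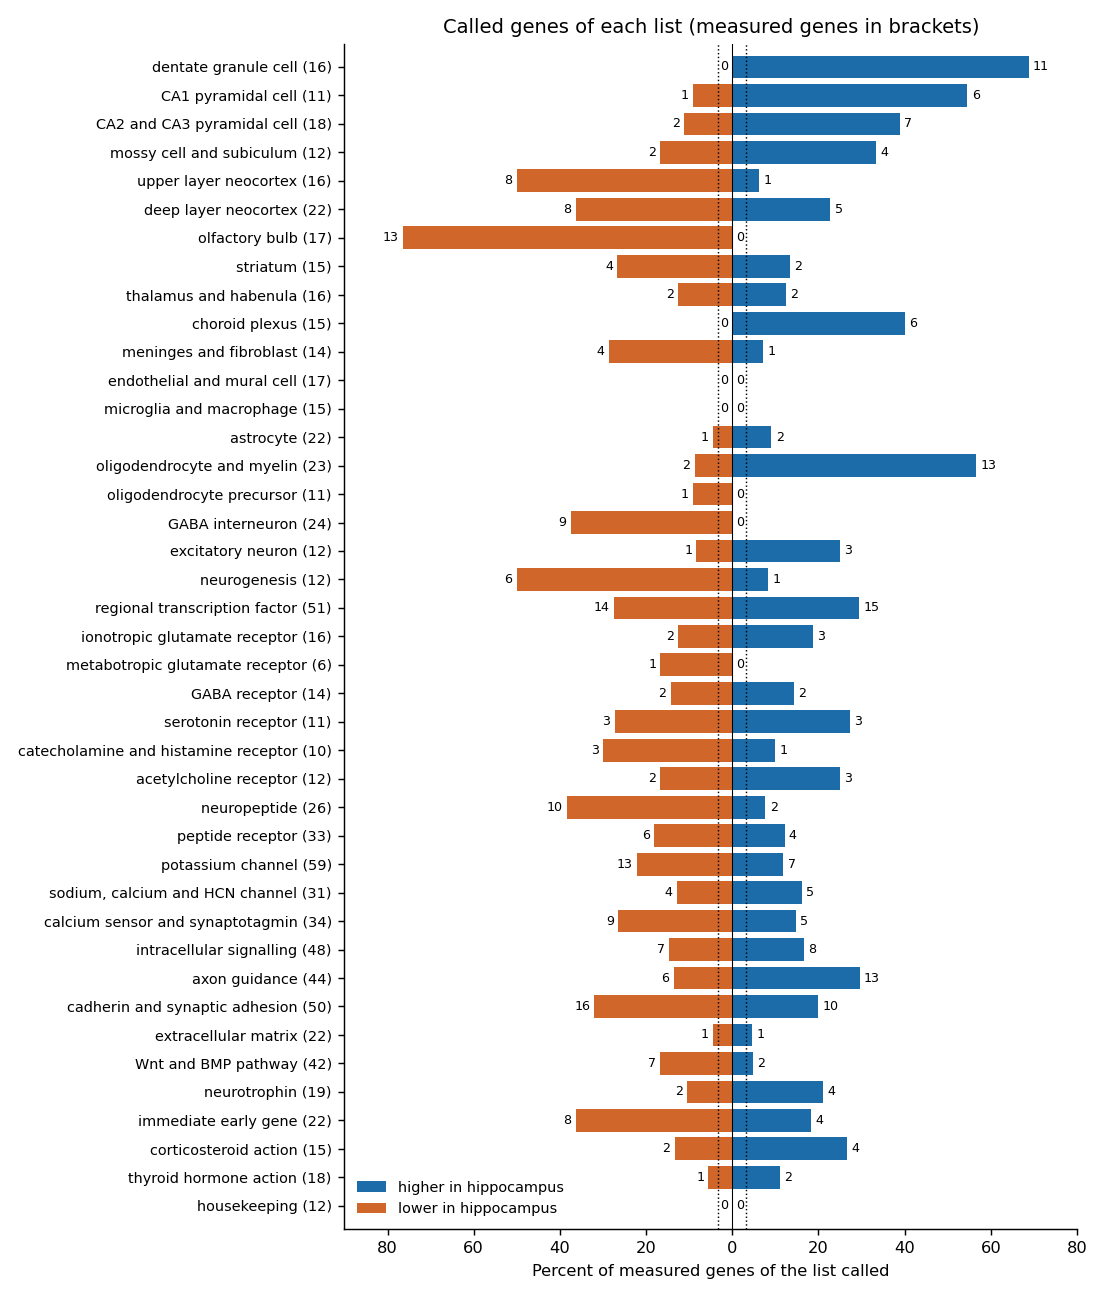
Percent of the measured genes of each of 41 lists that were called higher (blue, right) or lower (orange, left) in hippocampus, with counts at the bars, measured genes in brackets, and dotted lines at the shares over all genes of 3.22% and 3.27%. Dentate granule cell genes lie furthest on the higher side and olfactory bulb genes on the lower side.

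Transcription factors that mark brain regions were called often, 15 higher and 14 lower of 51, with a median of 0.14. The helix-loop-helix factors Neurod6 and Neurod2, which act in excitatory neurons, differed by 2.86 ± 0.24 and 2.05 ± 0.18. Neurod6 ran from 14.71 through 15.13 to 15.73 in hippocampus and from 11.13 through 12.37 to 13.29 in prefrontal cortex. Lhx9, a LIM homeobox gene, was below background in prefrontal cortex and higher by at least 1.57. Nfib and Nfix, of the nuclear factor I family, differed by 1.19 and 1.57, and Nr2f2, a COUP nuclear receptor, by 1.26. The homeobox gene Meis2 was on the lower side, from 11.06 through 12.63 to 13.39 in hippocampus against 15.91 through 16.63 to 17.61 in prefrontal cortex (-4.32 ± 0.30). Meis1 and Pax6 differed by -3.42 and -1.43. Meis2, Sp8 and Pax6 are active in olfactory bulb interneurons as well, and the Meis2 difference was -3.75 without the 4 arrays.

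Interneuron genes were lower or not called. Of 24 genes of GABA interneurons, 0 were higher and 9 lower, with a median of -0.32. Gad1, the main GABA synthase, ran from 10.87 through 11.52 to 11.64 against 12.66 through 13.56 to 14.99 (-2.28 ± 0.26), and Slc32a1, the vesicular GABA transporter, and Gad2 differed by -1.55 and -1.08. Dlx1, a homeobox gene of interneurons, differed by -3.43 ± 0.35, Ndnf, of layer 1 interneurons, by -2.03 ± 0.26, and Vip by -1.86. Pvalb, Sst and Reln of the same list were not called, at 0.52, 0.13 and -0.98, and Lhx6 was below background in both regions. Gad1, Dlx1 and Ndnf rose with the olfactory bulb markers, and Gad1 differed by -1.68 without the 4 arrays. Of 12 neurogenesis genes, 6 were lower and 1 higher (median -0.61), although both the dentate gyrus and the stream of cells to the olfactory bulb hold newborn neurons. Dcx, doublecortin of migrating neurons, ran from 7.87 through 8.38 to 8.76 against 10.79 through 11.86 to 12.96 (-3.49 ± 0.26, and -2.86 without the 4 arrays). Sox4 was lower by at least 0.52, Stmn1 differed by -1.68, and the cyclin Ccnd2 was higher by 1.31 ± 0.19.

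Glutamate receptor genes split by subunit. Of 16 ionotropic subunits, 3 were higher and 2 lower, with a median of 0.17. Gria1, the AMPA subunit GluA1, ran from 17.07 through 17.46 to 17.85 in hippocampus and from 15.64 through 16.16 to 16.38 in prefrontal cortex (1.37 ± 0.13), while Gria4 differed by -1.81 ± 0.23 and Gria2 by 0.27, which was not called. Grin2a, an NMDA receptor subunit, ran from 14.02 through 14.48 to 14.99 against 12.07 through 12.78 to 13.07 (1.74 ± 0.15). Among kainate subunits Grik4 was higher and Grik3 lower (-1.75 ± 0.22). Of 6 metabotropic receptors, Grm4 alone was called, at -1.31 ± 0.30, and it lost the call without the 4 arrays (-0.75). Cacng8, the AMPA receptor partner TARP gamma-8, was higher by 1.51 ± 0.23, and Lrrtm1, an adhesion protein of excitatory synapses, by 2.23 ± 0.20.

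GABA receptor subunits also went in both directions, 2 of 14 higher and 2 lower (median 0.10). Gabra5, the alpha-5 subunit of extrasynaptic receptors, ran from 16.27 through 16.70 to 17.01 in hippocampus and from 13.85 through 14.87 to 15.88 in prefrontal cortex (1.66 ± 0.21). Gabra3, the alpha-3 subunit, ran the other way, from 8.69 through 10.11 to 10.98 against 11.88 through 12.35 to 12.71 (-2.34 ± 0.27). Neither pair overlapped. Gabrb1 differed by 1.16 ± 0.18, and Gabrq was below background in both regions. Both lost their calls without the 4 arrays (Gabrb1 at 0.99), and Gabrq also without array 27 alone.

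Serotonin receptors were called on both sides, 3 of 11 higher and 3 lower (median 0.42). Htr2a, the receptor through which classical psychedelics act, ran from 8.42 through 8.54 to 8.90 in hippocampus and from 10.94 through 11.48 to 11.79 in prefrontal cortex. The difference was -2.87 ± 0.13 (adjusted p = 6.29e-12) and was the same to 2 decimals without the 4 arrays. Htr4 ran from 9.12 through 9.84 to 10.62 against 5.46 through 6.73 to 7.15 (3.20 ± 0.22), and Htr1a, the inhibitory receptor targeted by buspirone, from 7.81 through 8.17 to 8.78 against 6.32 through 7.19 to 7.25 (1.24 ± 0.17). Htr5b was higher by at least 0.51. Htr1f differed by -1.48 ± 0.21 and lost its call without the 4 arrays (-1.0), and Htr1d was below background in both regions.

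Receptors of other small transmitters were also called on both sides. Of 10 catecholamine and histamine receptors, Drd5, a dopamine receptor of the D1 class, was higher by at least 1.98, and Hrh3 (-1.34), Hrh2 (at least 1.33) and Adra1b (at least 0.63) were lower, with overlapping values. Hrh2 lost its call without the 4 arrays (fitted difference -0.99), and Adra1b without prefrontal array 29 (also -0.99). Drd1 and Drd2 were not called. Of 12 acetylcholine receptors, 3 were higher and 2 lower. Chrna7, the alpha-7 nicotinic subunit, ran from 9.24 through 9.82 to 10.97 against 7.99 through 8.27 to 8.78 (1.64 ± 0.20), and the muscarinic receptors Chrm2 and Chrm4 were lower, Chrm2 by at least 1.75 and Chrm4 with a difference of -1.28 ± 0.22. Chrm2 rose with the olfactory bulb markers, and its fitted difference was -1.39 without the 4 arrays. Chrm5 and Chrna5 were below background in both regions, and Chrna5 lost its call without array 17, 20, 22, 27 or 30 and without the 4 arrays.

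Neuropeptide genes were lower more often than higher, 10 against 2 of 26, with a median of -0.24. Penk, the enkephalin precursor, ran from 11.20 through 11.60 to 12.18 against 13.42 through 14.74 to 15.92 (-3.18 ± 0.27). Trh, thyrotropin-releasing hormone, was lower by at least 1.83 and Adcyap1, which encodes PACAP, by at least 0.81. Npy and Scg2 differed by -1.11 and -1.35. The higher genes were Grp, gastrin-releasing peptide (at least 1.61), and Nts, neurotensin (at least 0.19), both with overlapping values. Nts lost its call without array 19, 20, 22, 23, 27, 31 or 32, without the 4 arrays, and without arrays 17, 23 and 24, where the fitted difference was 0.71. Cck, Sst and Pdyn differed by -0.03, 0.13 and 0.20. Penk and Trh rose with the olfactory bulb markers, and Penk is also in the striatum list.

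Among peptide receptors 4 of 33 were higher and 6 lower (median -0.12). Npy2r, a presynaptic receptor of neuropeptide Y, ran from 9.35 through 10.15 to 11.97 in hippocampus and from 5.41 through 6.23 to 6.86 in prefrontal cortex, a difference of 4.38 ± 0.31 (adjusted p = 1.78e-09). Npy1r and Npy5r differed by 0.32 and 0.43 and were not called. Sstr4, a somatostatin receptor, was higher by 1.50 ± 0.12 with no overlap. On the lower side beside Cckbr were Crhr1, the receptor of corticotropin-releasing hormone (-2.11 ± 0.25, from 6.35 to 7.92 against 8.27 to 10.19), and Vipr2 and Tacr1, both of which rose with the olfactory bulb markers.

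Ion channel genes were called 7 times higher and 13 times lower among 59 potassium channel genes, with a median of 0.01. Kcnab1 and Kcnab2, beta subunits of the voltage-gated Kv1 channels, differed by 2.40 ± 0.18 and 1.41 ± 0.11, and the third beta subunit Kcnab3 was lower by at least 2.48. Kcnab1 ran from 12.98 through 13.15 to 13.73 against 10.17 through 10.82 to 11.83. Kcnj6, the inward rectifier GIRK2, differed by 1.39 ± 0.22. Kcnh5, of the ether-a-go-go family, ran from 8.55 through 9.03 to 9.97 against 11.55 through 11.97 to 12.65 (-2.90 ± 0.18), and its relatives Kcnh7, Kcnh2 and Kcnh3 differed by -1.74, -1.60 and -1.30. Kcnh1 differed by -0.82 and was not called. The silent subunit Kcnf1 differed by -2.45 ± 0.18. Of 31 sodium, calcium and HCN channel genes, 5 were higher and 4 lower. Cacna2d3, an accessory calcium channel subunit, differed by 1.80 ± 0.18, the sodium channel beta subunit Scn3b by 1.25 ± 0.18, and the T-type channel Cacna1g by -1.11 ± 0.22, which lost its call without the 4 arrays (-0.91).

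Calcium sensors and signalling enzymes followed Cabp7 only in part. Of 34 calcium sensor and synaptotagmin genes, 5 were higher and 9 lower (median -0.01). Hpca, which encodes hippocalcin, a sensor named for the hippocampus, ran from 18.60 through 19.06 to 19.37 against 16.19 through 16.70 to 16.79 (2.50 ± 0.13, adjusted p = 1.51e-11), and Doc2b, a sensor for vesicle release, differed by 2.55 ± 0.21. Necab3, a neuronal calcium-binding protein, differed by -2.25 ± 0.26, and Cabp1 by -1.31. Of 48 signalling genes, 8 were higher and 7 lower (median 0.09). Prkcd, protein kinase C delta, was 9.53 through 9.90 to 12.61 in hippocampus and 7.14 through 7.44 to 7.64 in prefrontal cortex (2.86 ± 0.24). Its highest value was on array 23, which also had the highest thalamus mean, and the difference was 2.51 without arrays 17, 23 and 24. Adcy1, a calcium-stimulated adenylyl cyclase, differed by 1.89 ± 0.16, Ptk2b, a tyrosine kinase, by 1.50 ± 0.20, and the G protein regulators Rgs6 and Rgs4 by -2.51 ± 0.23 and -1.72 ± 0.23.

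Axon guidance genes gave 13 higher and 6 lower of 44, with a median of 0.23. Slit1, a repulsive ligand, ran from 11.59 through 12.10 to 12.99 in hippocampus and from 7.65 through 8.69 to 9.21 in prefrontal cortex (3.59 ± 0.24), and Slit3 and the Slit receptor Robo1 differed by 2.08 and 1.32. Slit3 and Slit1 thus differed in the same direction as that receptor, while Robo2 differed by -0.54 and was not called. The Eph receptors Epha4, Epha7 and Epha6 differed by 2.24 ± 0.17, 2.15 and 2.05, and the ephrins Efna5 and Efnb2, ligands of this family, by -1.91 ± 0.22 and -1.79 ± 0.20. Epha4 ran from 13.19 through 13.66 to 14.32 against 10.86 through 11.42 to 11.96. The semaphorin receptors Plxna4 and Plxna1 differed by 2.10 and 1.50, opposite in sign to their ligand Sema3a.

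Adhesion genes were called at 26 of 50 (10 higher, 16 lower, median -0.19), and 24 of the 50 had no overlap between regions. Cadherins divided, with Cdh8 (2.26 ± 0.15), Cdh9 (2.14) and Cdh11 (1.14) higher and Cdh6 (-2.49 ± 0.23), Cdh22 (at least 2.22), Cdh7 (-1.31) and Cdh18 (-1.32) lower. Cdh8 ran from 13.69 through 13.96 to 14.17 against 11.33 through 11.57 to 12.60, and Cdh6 from 7.65 through 8.36 to 9.51 against 10.80 through 10.94 to 11.31. Protocadherins did likewise, with Pcdh19 and Pcdh20 at 1.66 and 1.51 and Pcdh10 and Pcdh7 at -1.86 and -1.36. Cbln2, a secreted synapse organiser, differed by -3.44 ± 0.36. Of 42 Wnt and BMP pathway genes, 7 were lower and 2 higher, Lgr5, Dkkl1 and Sfrp1 on the lower side and Dkk3 and Rspo2 on the higher, and of 22 matrix genes Hapln4 was higher (1.46 ± 0.21) and Col6a1 lower (at least 1.44). Without the 4 arrays Dkk3 (0.79) and Rspo2 (0.96) lost their calls, Rspo2 also without arrays 17, 23 and 24 (0.99).

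Genes of stress hormone action included some of the larger differences. Nr3c2, the mineralocorticoid receptor, ran from 13.00 through 14.01 to 14.60 in hippocampus and from 9.94 through 10.32 to 10.82 in prefrontal cortex, a difference of 3.57 ± 0.21 or a factor of 11.9 (adjusted p = 1.98e-10). Nr3c1, the glucocorticoid receptor, differed by 0.19 and was not called. Hsd11b1, the enzyme that regenerates active glucocorticoid, ran from 10.59 through 10.95 to 11.38 against 7.19 through 7.83 to 8.72 (3.12 ± 0.17). The glucocorticoid-induced genes Zbtb16 and Fkbp5 differed by 1.91 ± 0.18 and 1.38, while Sgk1, Tsc22d3 and Per1 differed by 0.50, 0.28 and -0.71 and were not called. In the whole list 4 of 15 were higher and 2, Cdkn1a and Crhr1, lower (median 0.24).

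Growth factor genes were called at 4 higher and 2 lower of 19 (median -0.02). Bdnf, brain-derived neurotrophic factor, ran from 9.56 through 10.54 to 11.04 against 7.89 through 8.92 to 9.57 (1.64 ± 0.22), overlapping at the edge. Its receptor Ntrk2 differed by -0.38 and was not called, while Ntrk3, the receptor of neurotrophin-3, differed by 1.13. Fgfr1 differed by 1.42 ± 0.21 and the ligand Nrg1 by -1.39 ± 0.21. Of 22 immediate early genes, switched on by neuronal activity, 4 were higher and 8 lower, with a median of -0.55. The mean of this list was 7.92 on prefrontal array 26 and 9.04 to 9.98 on the other prefrontal arrays. On array 26 Npas4, Egr1, Nr4a1 and Nr4a3 had their lowest prefrontal values and Nr4a2 its highest. Npas4, Egr1 and Fos differed by -2.01 ± 0.49, -1.71 ± 0.41 and -1.39, all with overlapping values, and Arc by -0.55, which was not called. The nuclear receptors of the NR4A family split, Nr4a3 at 2.59 ± 0.34, Nr4a2 at 1.91 ± 0.44 and Nr4a1 at -1.78 ± 0.55, and Jun was higher by 1.82 ± 0.17 without overlap. Without the 4 arrays Egr1 (-1.45) and Nr4a1 (-1.17) lost their calls, and Nr4a1 did so without array 18, 21, 25 or 28 alone (-1.63 to -1.42).

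Myelin genes were higher as a set of small differences. Of 23 oligodendrocyte and myelin genes, 13 were higher and 2 lower, with a median of 1.08, but only 1 gene had no overlap between regions. That gene was Gpr37, a receptor found on oligodendrocytes (1.96 ± 0.24). Cldn11, Ermn, Mog, Mag and Mobp differed by 1.41 ± 0.32, 1.40 ± 0.33, 1.34, 1.15 and 1.04, and Mbp by 0.95, which was not called. The mean of the list ran from 9.74 to 11.5 in hippocampus and from 9.65 to 10.7 in prefrontal cortex. Cldn11 and Ermn lost their calls when hippocampus arrays 17, 23 and 24 and the 4 prefrontal arrays were all left out. The 2 lower genes were Klk6 (at least 0.95) and Apod (-1.0 ± 0.25), which lost its call without array 17, 19, 21, 25, 27, 30 or 32 (-0.97 to -0.83) and was at -0.49 without the 4 arrays. Of 11 genes of oligodendrocyte precursors, Lhfpl3 alone was called (-2.20 ± 0.24). It rose with the olfactory bulb markers and was at -1.74 without the 4 arrays.

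Other glial and vascular lists varied in their share of called genes, which was 6.49% over all genes. It was 13.6% for astrocytes and 35.7% for meninges and fibroblasts. Of 22 astrocyte genes, Gfap, the intermediate filament of astrocytes, ran from 11.31 through 12.04 to 13.04 against 9.21 through 9.83 to 10.28 (2.28 ± 0.21), and Agt, angiotensinogen, differed by 1.55 ± 0.16. The GABA transporter Slc6a11 differed by -1.55 ± 0.24, and Aldh1l1, Aqp4 and Slc1a2 by 0.06, 0.28 and 0.58, not called. Slc6a11 rose with the olfactory bulb markers and differed by -1.04 without the 4 arrays. None of 17 endothelial and mural genes and none of 15 microglia and macrophage genes was called, with Cldn5 at -0.13, P2ry12 at 0.03 and Tmem119 at 0.20. Of 14 meningeal and fibroblast genes, 4 were lower, Islr and Igfbp2 among them, and Dcn was higher, with its lost calls given above. Igfbp2 lost its call without the 4 arrays (-0.71). The 12 housekeeping genes held 0 calls, with differences from -0.42 (Hprt) to 0.43 (Gusb).

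Of the thyroid hormone genes, the subject of the study, 16.7% were called between the regions, against 6.49% of all genes. Dio2 ran from 8.68 through 9.38 to 9.55 in hippocampus and from 9.61 through 9.96 to 10.16 in prefrontal cortex, so that all prefrontal arrays lay above all hippocampus arrays. Its difference of -0.64 ± 0.14 (adjusted p = 0.00172) passed the adjusted p but not the size threshold, and the 95% confidence interval was -0.93 to -0.35. The probes report the level of the transcript and were not used to check the codon. For the hormone receptors Thra and Thrb the differences were 0.57 ± 0.16 and -0.22 ± 0.25, and for Klf9, which T3 induces, 0.38 ± 0.13. None of these was called, nor was Hr, another gene that T3 induces, which was below background in both regions. Of 18 genes in the list, 2 were higher and 1 lower (median 0.18). Of the higher genes, Ttr also marks choroid plexus, overlapped between the regions and was highest on hippocampus arrays 17, 24 and 23. The other was Crym, a cytosolic T3-binding protein, from 10.24 through 10.82 to 11.51 against 7.70 through 8.63 to 9.70 (2.14 ± 0.28). The lower gene was Rxrg, a retinoid X receptor, which was lower by at least 0.04 with overlapping values.

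The last comparison was whether the regional difference itself depended on genotype. No gene of 14429 passed (0 called, 0%, in limma, with 355 genes at an unadjusted p under 0.05, or 2.46%). Within the Ala arrays alone 870 genes (6.03%) were called between regions and within the Thr arrays 979 (6.78%), 703 of them in both. All 936 genes had the same sign in both genotypes, and for 754 the difference was at least 1 in each. Cabp7 differed by 6.38 in Ala and 6.55 in Thr, Prox1 by 5.29 and 5.86, and Dio2 by -0.56 ± 0.20 and -0.72 ± 0.20. The 5 genes with the smallest p for a dependence on genotype were 4632415L05Rik, Odam, F2r, Olfr1226 and Sema3a, each with an adjusted p of 1. For Sema3a, the one of them called between regions, the fitted differences were -2.79 ± 0.31 in Ala and -4.32 ± 0.31 in Thr. Ttr differed by 2.67 ± 1.51 in Ala and 7.69 ± 1.51 in Thr. The choroid plexus means were high on 1 Ala and 2 Thr hippocampus arrays, and their part in the Ttr values was not tested.

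**Figure D5:**
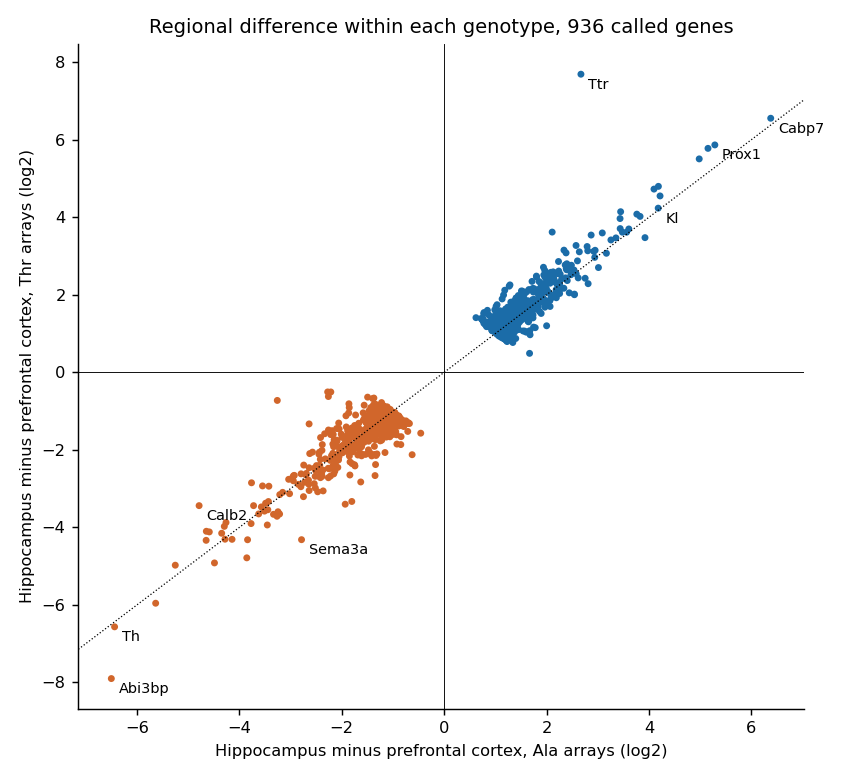
Difference between hippocampus and prefrontal cortex (log2) in the Ala arrays (horizontal axis) against that in the Thr arrays (vertical axis) for the 936 called genes, with a dotted line of equality. All 936 points lie in the quadrants of equal sign, and Ttr, at 2.67 and 7.69, is far from the line.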

How the data were processed

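The deposited table holds log2 signals of a whole-transcript Affymetrix array as deposited by the authors. They used RMA according to the submitters' processing notes, and its version is not given in the sources used here. This method subtracts background, normalizes between arrays and summarizes probes, and no scaling was added. Differences are on this deposited log2 scale, whose stretch relative to RNA amount is not stated. Of 28846 table entries, 6640 were controls, 19572 had 1 gene symbol, 0 several and 2634 none. All named entries matched the GRCm38.p6 gene table. For 55 of 19505 genes with several entries the one with the highest mean was kept.

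Genes above the 30th percentile (log2 4.46) on at least 4 arrays were tested, 14429 in all. A mean for each of 4 groups of region and genotype entered a linear model in limma 3.58.1 (R 4.3.3), with trended eBayes moderation and 12 residual degrees of freedom. Adjusted p-values are Benjamini-Hochberg values over all genes from this fit. The regional contrast averaged both genotypes, and a second contrast set the regional difference in Ala against that in Thr. In simulated data of the regional contrast, 50 genes were changed at each size, with noise drawn independently for each gene. The adjusted p was under 0.05 for 32% of genes changed by 0.5 log2 units, 98% at 1, and 100% at 2 and 4. The size threshold of a call was not applied there, and the second contrast was not simulated. The number of arrays limits this precision, and the median SE was 0.15.

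The genes and the 41 gene lists (1038 entries, 903 measured) were chosen with earlier results of these data known, so list counts are descriptions. Named genes followed a rule: the 12 largest differences per direction among called genes above background in both regions, the 8 largest per direction of all called genes, up to 3 per direction in each list, 5 thyroid hormone genes always, and the 5 smallest p for dependence on genotype. Further members of a list are given as examples from its full set of values. Alternatives covered the filter, scaling, variance estimate, thresholds, marker means as covariates and arrays left out. Promoter sequences are RefSeq's, for GRCm38.p6.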

Additional observations from a re-analysis of the deposited data

Results flagged for a closer look

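Within the 4 groups of 4 arrays, 784 sets of values (named genes and list means) were examined for an array far from the other 3 of its group, and 29 (3.7%) held one. Chance marks about 1 in 20 groups.

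Ala hippocampus array 18 held 7 of them, more than any other array. It was high for the dentate gene C1ql2 (10.51) and for Cabp7 (13.15) and low for Dkk3 (13.5), Gad1 (10.87), Nr4a1 (7.625), Nrg1 (6.69) and the mean of the CA1 list (9.143). Thr hippocampus array 21 was high for Dkk3 (14.0) and Grik4 (10.82) and stood apart for Htr1a (8.702). On the other hippocampus arrays, Dio2 stood apart on Ala array 19 (8.938), Fmod on Ala array 17 (3.707), Ndnf on Ala array 20 (8.825), Htr5b on Thr array 23 (7.346) and Th on Thr array 24 (5.518).

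Thr prefrontal array 30 stood apart for Cckbr (10.25), Hpca (16.25), Htr1a (6.952) and Zbtb16 (10.02). Ala prefrontal array 27, which had the highest olfactory bulb mean, did so for Cyp7b1 (7.18), Htr5b (4.982) and Tacr1 (8.154). Ala array 28 stood apart for Tpbg (7.697) and the mean of the CA2 and CA3 list (7.806), Ala array 26 for Nr4a1 (7.983), Thr array 32 for Foxp2 (8.264) and Rasd2 (8.424), and Thr array 29 for Rgs4 (15.73) and Thra (15.0).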

How the results depend on the processing

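With a log2 difference of at least 2 in place of 1, 212 genes were called, 101 higher and 111 lower in hippocampus, since fewer genes can pass. Leaving out each array in turn gave 877 to 988 called genes, 440 to 497 higher and 426 to 492 lower, and 0 to 0 for dependence on genotype. Leaving out Thr hippocampus arrays 23 and 24 gave 1022 genes. Alternatives chosen after seeing the data left out arrays or added a covariate. Without the 4 prefrontal arrays highest in olfactory bulb markers 817 genes were called, and 1035 without hippocampus arrays 17, 23 and 24. Without all 7 the count was 956, and with the olfactory bulb mean as a covariate it was 937. Marker means used as covariates were centred within each region, so they could not change the regional difference averaged over genotypes. The gap between the regions in those means was not adjusted for. No paired analysis was possible because the labels do not tie arrays to animals. Whether both regions came from the same mice is not stated, and all arrays were fitted as independent. Of 178 named genes, 169 were called. Single genes were run under 35 settings at the same thresholds, or 34 for 11 of the 178, which the stricter filter left out. None of the called genes reversed its sign under them. Of the genes not called, 4632415L05Rik, F2r, Odam, Olfr1226 and Hr changed sign in some settings. Under those settings the call was never lost for 139 and was lost at least once for 30, among them Clic6, Rasd2, Chrna5, Dcn and Nts. The share of called genes that were higher in hippocampus stayed between 47.6% and 52.3%. In the separate fit to the Ala arrays Ttr, Egr1, Npas4, Tbr1 and Dkk3 were among the genes not called. Levels below background limit the size of the differences that can be stated.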
